A study of Mus musculus with 28 samples.

Results

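The 7 genes that encode NMDA receptor subunits, Grin1, Grin2a, Grin2b, Grin2c, Grin2d, Grin3a and Grin3b, were taken by name from the deposited comparison tables, which list 22919 genes; all 7 were found. The measurements were nascent transcription in mouse forebrain cultures from CD1 embryos of embryonic day 18, made of cortex and hippocampus pooled over embryos and labelled as neurons, astrocytes and oligodendrocyte precursor cells. Every culture was infected on day 14 in vitro with a lentivirus for a control hairpin RNA (shCtrl) or for one that targets Rai1 (shRai1), so the controls also carried virus. On day 17 the cultures received water as vehicle, 1 µM tetrodotoxin (TTX, which blocks voltage-gated sodium channels and silences firing) or 20 µM bicuculline (BIC, which blocks GABA-A receptors and raises firing) for 4 hours. Bromouridine at 2 mM was present for the last 20 minutes, and the RNA that had taken it up was captured and sequenced (Bru-seq), so the reads come from introns as well as exons. There were 16 Bru-seq libraries in 6 groups, 2 for shCtrl with vehicle, 2 for shCtrl with BIC and 3 for each of the other 4 groups.

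The NMDA receptor is a cation channel that passes calcium and typically opens when glutamate and a co-agonist, glycine or D-serine, are bound while the membrane is depolarised. It is a tetramer in which the obligatory GluN1 subunit (Grin1) binds the co-agonist and is combined with glutamate-binding GluN2 subunits (Grin2a to Grin2d) or glycine-binding GluN3 subunits (Grin3a, Grin3b). In the developing forebrain GluN2B is replaced in part by GluN2A, GluN2D is found mainly in interneurons, GluN2C is better known from cerebellum and glia, and GluN3A is a juvenile subunit that lowers calcium entry.

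Grin3a and Grin2d had the largest responses of the family that passed the test. TTX lowered Grin3a and BIC raised it in both arms, whereas BIC lowered Grin2d to 0.439 of its vehicle level in shCtrl and 0.442 in shRai1. Grin1 and Grin2a lay between 0.810 and 1.16 times vehicle under either drug in either arm, and Grin2b, Grin2c and Grin3b passed no test. No subunit gene was called between shRai1 and shCtrl under any of the 3 treatments.

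Values per library were not used here. The level of each gene per length was read from the authors' FPKM (fragments scaled to gene length and library size), 1 pooled value with bounds for each shCtrl condition, and the changes from the authors' deposited tables of log2 changes with standard errors (SE). A gene was called where its Benjamini-Hochberg adjusted p was under 0.05; the deposited tables give one to 14237 to 21192 genes, and contrasts computed here were adjusted over 18241 genes. In bulk cultures, fewer cells of a type and less RNA per cell cannot be told apart. In shCtrl vehicle cultures 8 neuron markers ranged from 7.79 to 152 FPKM, 8 astrocyte markers from 5.68 to 81.7 and 5 oligodendrocyte precursor markers from 3.12 to 70.9. The 3 endothelial markers were all under 1 FPKM. Of 5 microglial markers 1, Tmem119, was under 1 FPKM, and Cx3cr1 was the highest at 14.7 FPKM, with a sum of 19.3 FPKM over the 5.

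In vehicle, Grin1 had the highest level of the family, 43.4 FPKM with bounds of 31.1 and 55.6. Grin2b followed at 27.7 FPKM, with bounds of 21.4 and 33.9 that overlapped those of Grin1. Grin2a was listed at 16.2 FPKM with bounds of 12.2 and 20.2, below and apart from those of Grin2b. The gap between Grin2b and Grin2a was smaller in counts per kb, given below. The first 3 genes made up 43.9%, 28.0% and 16.4% of the FPKM summed over the 7 genes.

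Grin3a stood lower, at 5.56 FPKM with bounds of 4.07 and 7.05, apart from both its neighbours in the order. Grin2d was at 2.66 FPKM with bounds of 1.61 and 3.71, Grin2c at 1.75 FPKM with bounds of 0.972 and 2.53, and Grin3b at 1.47 FPKM with bounds of 0.0858 and 2.85. The bounds of the last 3 genes overlapped, so their order was not resolved. The bounds of every subunit gene overlapped between vehicle, TTX and BIC.

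**Figure D1:**
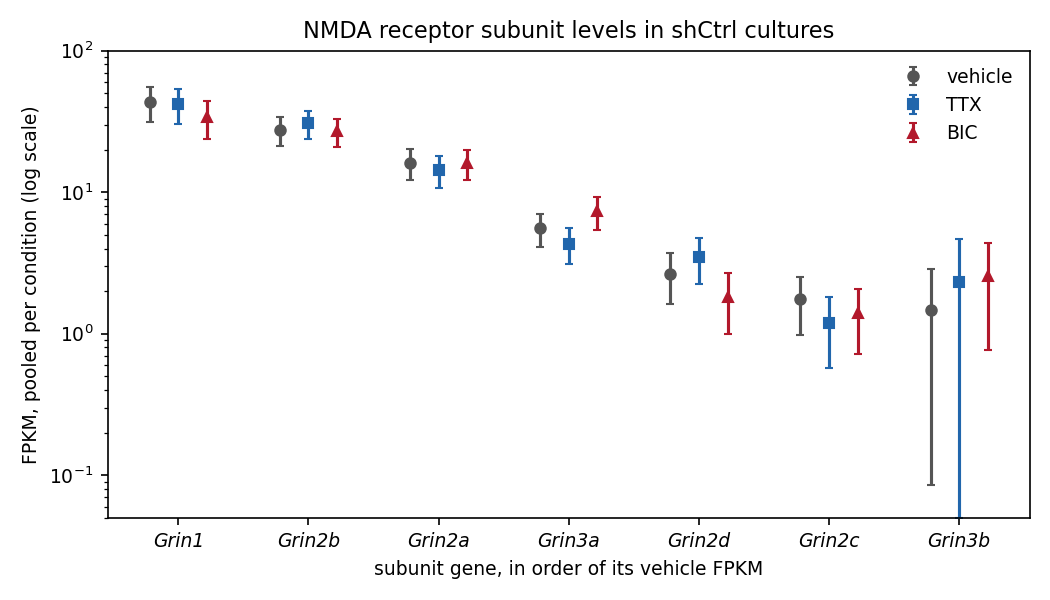
Pooled FPKM of the 7 NMDA receptor subunit genes in shCtrl cultures on a log axis, with the authors' bounds as bars, for vehicle (circles), TTX (squares) and BIC (triangles). Grin1, Grin2b and Grin2a lie between 14.4 and 43.4 FPKM in all 3 conditions, and the lower bound of Grin3b in TTX is 0 and runs off the axis.

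The place of Grin3a in that order depended on the table. Over its listed interval its mean normalized count over all libraries was 499, or 2.71 counts per kb, against 4.06 for Grin2d and 2.86 for Grin2c. Counts per kb divided by mean FPKM came to 0.467 for Grin3a, at percentile 4.88 of 9708 genes that share their interval with no other, whose median was 2.20. Grin3b was lower still at 0.227, while the other 5 subunit genes lay between 1.52 and 2.84. Each of these 2 genes shares its listed interval with another gene, Grin3a with Ppp3r2 and Grin3b with Tmem259. Grin1 also shares its interval, with Grin1os and Lrrc26, and its ratio was 2.23, at percentile 51.4. The part of this sharing in the ratios was not tested beyond these values. Grin2b and Grin2a, which share their intervals with no other gene, were close by counts over all libraries, at 45.93 and 43.55 per kb. Their mean FPKM over 6 conditions were 27.6 and 15.3, and their ratios of counts per kb to FPKM were 1.66 and 2.84.

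The listed intervals differ widely in length. In coordinates of mm9, the build in the submitters' processing notes, Grin2b spans chr6:135679823-136123529 (444 kb) and Grin2a chr16:9577803-9992626 (415 kb), and no other gene is listed at either interval. Grin3a spans chr4:49674483-49858641 (184 kb), Grin2d chr7:53087853-53122051 (34.2 kb) and Grin1 chr2:25145431-25174707 (29.3 kb). Grin2c lies at chr11:115110483-115128557 (18.1 kb) and Grin3b at chr10:79433469-79447075 (13.6 kb). The intervals of Grin1, Grin3a and Grin3b are also listed for other genes, named above, so their lengths are those of a shared locus, which can be longer than the subunit gene.

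Silencing by TTX was compared with vehicle in each arm. In shCtrl 1 of 6 subunit genes with an adjusted p was called, Grin3a, against 26.7% of all genes with an adjusted p (DESeq2). In shRai1 3 of 6 were called, Grin3a, Grin1 and Grin2a, all lower, against 30.5% of all. Averaged over both arms, the same 3 genes were lower and none was higher among 7 tested, against 33.1% of all genes called in either direction, 17.5% lower and 15.5% higher. The members' median log2 change in that average was -0.17, against 0.01 over all genes tested.

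BIC was compared with vehicle in the same way. Of the activity-regulated genes looked at, Bdnf (1.41) and Arc (0.78) were called higher under BIC in shCtrl. Npas4 (0.54, adjusted p = 0.0907, DESeq2) and Fos (0.42, adjusted p = 0.210) were not. In shRai1 all of them were called higher, and their BIC response was not called different between arms. Among the subunit genes BIC gave 2 calls of 7 in each arm, Grin3a higher and Grin2d lower. The share called among all genes was 34.4% in shCtrl and 42.5% in shRai1. In the average over arms Grin3a and Grin2a were higher and Grin2d and Grin1 lower, 4 of 7, against 46.0% of all genes. With 7 genes, such counts say nothing particular of the family.

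The contrast of BIC with TTX, in which the vehicle level cancels, was computed from the same tables. It called Grin3a higher and Grin2d lower in shCtrl, 2 of 7 against 32.4% of all genes, and Grin3a and Grin2a higher and Grin2d lower in shRai1, 3 of 7 against 39.5%. Its SE is an upper bound, since both responses share the vehicle libraries.

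**Figure D2:**
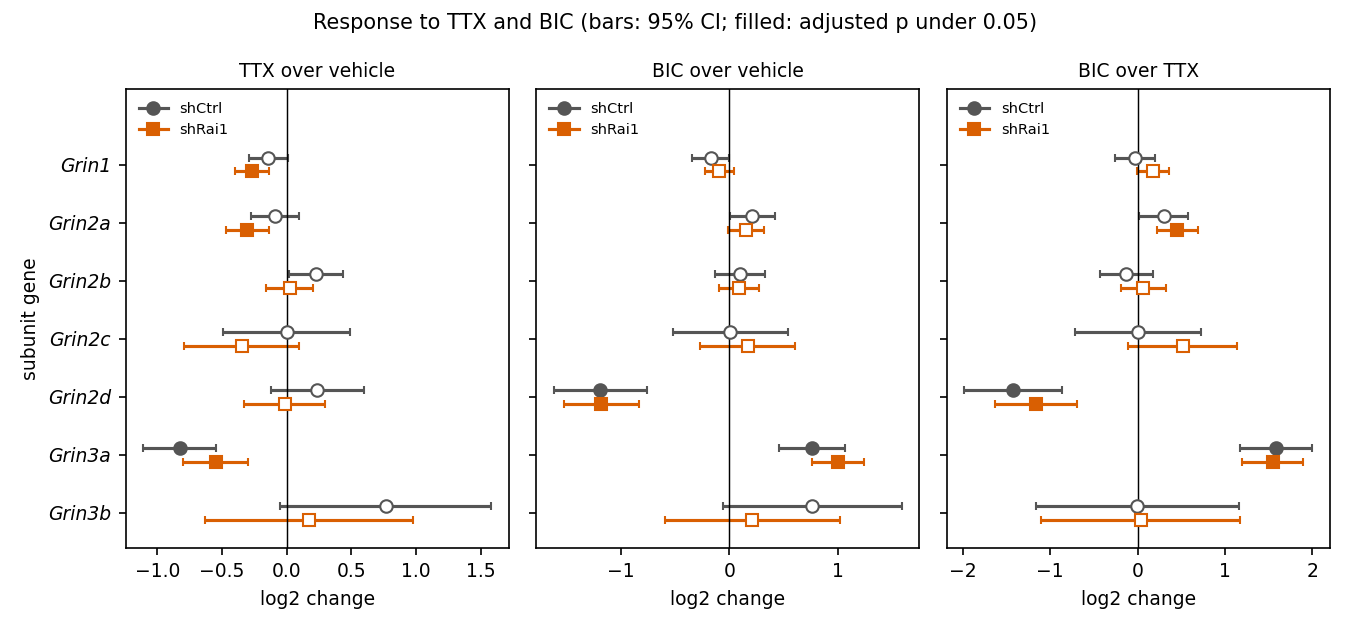
Log2 change of each subunit gene for TTX over vehicle, BIC over vehicle and BIC over TTX, in shCtrl (grey circles) and shRai1 (orange squares), with 95% confidence intervals as bars and filled symbols for adjusted p under 0.05. Grin3a is on opposite sides of 0 under TTX and BIC, and Grin2d lies near -1.2 under BIC in both arms.

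Grin1 encodes the subunit that every NMDA receptor needs. Its level in shCtrl was 43.4 FPKM in vehicle, 42.0 in TTX and 34.1 in BIC. Under TTX its log2 change in the authors' deposited table was -0.14 (SE 0.077, adjusted p = 0.173, DESeq2) in shCtrl, and that for shRai1 gave -0.27 (SE 0.068, adjusted p = 0.000526). Only the shRai1 change passed the test, but the difference between the arms was -0.13 with a 95% confidence interval from -0.33 to 0.08 (adjusted p = 0.831, Wald test with Benjamini-Hochberg adjustment). Averaged over arms, Grin1 fell by 0.21 on the log2 scale (SE 0.051, adjusted p = 0.000361), to 0.867 of vehicle.

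Under BIC the authors' deposited tables gave Grin1 a log2 change of -0.17 (SE 0.087) in shCtrl and -0.09 (SE 0.068) in shRai1, neither of them called. The average over arms was -0.13 (SE 0.055, adjusted p = 0.0383, Wald test). This call was lost after centring on the median gene, where the change was -0.09 with an adjusted p of 0.190. Grin1 thus stood at 0.867 of vehicle under TTX and 0.913 under BIC, and neither drug raised it.

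The antisense gene Grin1os and Lrrc26 are listed at the same interval as Grin1. Grin1os had 28.5 FPKM in vehicle but a mean normalized count of 1.10, and Lrrc26 had 16.7 FPKM and a count of 0.543, against 2572 for Grin1. Whether the authors' counting used strand is not given in the sources used here, so reads of Grin1 and Grin1os cannot be told apart with certainty.

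A promoter sequence from RefSeq was at hand for 4 of the 7 genes, Grin1, Grin2c, Grin2d and Grin3b, and is shown for both called genes among them. For Grin1 it is the 250 bases before the start at chr2:25319188-25319437 of GRCm38.p6, on the minus strand, written 5′ to 3′ in the direction of the gene, with capitals for matches to TGACG, the core of the cAMP response element (CRE) bound by CREB, and to the right core of RE1 (GGACAG, part of the site bound by REST), on either strand.
Grin1: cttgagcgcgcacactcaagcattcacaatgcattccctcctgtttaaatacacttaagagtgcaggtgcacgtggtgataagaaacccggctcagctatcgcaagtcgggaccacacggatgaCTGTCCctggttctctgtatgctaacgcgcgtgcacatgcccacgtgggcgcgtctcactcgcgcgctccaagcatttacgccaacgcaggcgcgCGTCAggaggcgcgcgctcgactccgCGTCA
The window holds 2 TGACG matches, from base 31 and base 5 before the start, found in 17.8% of 32851 promoter windows of this length. It holds 1 right RE1 core, from base 126, against 18.7% of windows. E-boxes (CANNTG), which are not in capitals, numbered 4, and 66.2% of windows hold at least 1. The full CRE (TGACGTCA, in 1.55% of windows), AP-1 (TGANTCA, 6.75%), GC box (GGGCGG, 32.7%), EGR site (GCGNGGGCG, 4.70%) and left RE1 core (AGCACC, 13.4%) had no match in these letters. TGACG is part of the full CRE, and an EGR site can overlap a GC box.

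Grin2a and Grin2b encode the 2 GluN2 subunits with the highest levels here, and both are very long genes. Grin2a was listed at 16.2 FPKM (vehicle), 14.4 FPKM (TTX) and 16.1 FPKM (BIC). The authors' deposited tables gave it a log2 change under TTX of -0.09 (SE 0.094, adjusted p = 0.561, DESeq2) in shCtrl and -0.30 (SE 0.083, adjusted p = 0.00161) in shRai1. The arms differed by -0.22, with a 95% confidence interval from -0.46 to 0.03 (adjusted p = 0.651, Wald test). Averaged over arms Grin2a fell by 0.20 on the log2 scale (SE 0.063, adjusted p = 0.00744).

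Under BIC the authors' deposited tables gave Grin2a log2 changes of 0.21 (SE 0.11, adjusted p = 0.115, DESeq2) in shCtrl and 0.15 (SE 0.083, adjusted p = 0.133) in shRai1. Neither passed alone, and their average, 0.18 (SE 0.067), passed with an adjusted p of 0.0170 (Wald test). BIC exceeded TTX by 0.46 (SE 0.12, adjusted p = 0.000435) in shRai1 and by 0.30 (SE 0.14, adjusted p = 0.0973) in shCtrl. The pooled FPKM did not show the BIC response, with a log2 ratio to vehicle of -0.01 in shCtrl.

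Grin2b, the GluN2 subunit typical of young neurons, was at 27.7 FPKM in vehicle, 30.8 in TTX and 26.9 in BIC. Its log2 change under TTX in the authors' deposited tables was 0.23 (SE 0.10, adjusted p = 0.0966, DESeq2) in shCtrl and 0.02 (SE 0.093, adjusted p = 0.890) in shRai1. Under BIC the authors' deposited tables gave 0.10 (SE 0.12) and 0.09 (SE 0.093), with no call. Its mean normalized count of 20381 was the highest of the 7 genes, while Grin2b had 45.9 counts per kb against 87.8 for Grin1. The averages of Grin2b over arms, 0.13 under TTX and 0.09 under BIC, had 95% confidence intervals from -0.01 to 0.26 and from -0.05 to 0.24.

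The balance of Grin2b to Grin2a is given as values, since the difference of 2 genes of the same libraries was not tested. The FPKM ratio was 1.71 in vehicle, 1.67 in BIC and 2.14 in TTX. Its size was particular to the FPKM, since counts per kb over all libraries were 45.93 for Grin2b and 43.55 for Grin2a. The log2 change of Grin2b minus that of Grin2a was 0.31 in shCtrl and 0.33 in shRai1 under TTX, and -0.11 and -0.06 under BIC. Among 330 genes of at least 300 kb that share their interval with no other gene, the median log2 change under TTX was -0.11 in shCtrl and -0.13 in shRai1. Under BIC that median was 0.13 and 0.12, so the directions of Grin2a were those of the median gene of its length, while Grin2b was above it under TTX.

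Grin2d encodes GluN2D, whose receptors have slow kinetics and weak magnesium block. Its promoter window of 250 bases is at chr7:45866682-45866931 of GRCm38.p6 on the minus strand, written and marked as for Grin1.
Grin2d: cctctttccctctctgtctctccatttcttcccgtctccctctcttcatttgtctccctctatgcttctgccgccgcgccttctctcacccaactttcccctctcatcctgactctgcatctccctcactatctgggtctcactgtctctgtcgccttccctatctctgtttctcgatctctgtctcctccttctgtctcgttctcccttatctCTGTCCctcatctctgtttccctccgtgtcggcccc
It holds 1 right RE1 core, from base 36 before the start, 1 E-box, and no match to the other 6 motifs. Its GC content was 54.4%, against 58.8% for Grin1 and a median of 52.4% over all windows.

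In shCtrl Grin2d was at 2.66 FPKM in vehicle, 3.49 in TTX and 1.83 in BIC. Under BIC the authors' deposited table for shCtrl put the log2 change at -1.19 (SE 0.22, adjusted p = 4.83e-07, DESeq2), and that for shRai1 gave -1.18 (SE 0.18, adjusted p = 1.80e-10). The arms thus fell to 0.439 and 0.442 of vehicle, and their difference was 0.01 with a 95% confidence interval from -0.54 to 0.56. In size the average change exceeded that of 96.1% of all genes tested.

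TTX changes of Grin2d in the authors' deposited tables were 0.24 (SE 0.18) in shCtrl and -0.02 (SE 0.16) in shRai1, neither called. BIC lay below TTX by 1.43 on the log2 scale (the change was -1.43, SE 0.28, adjusted p = 4.33e-06, Wald test) in shCtrl and by 1.16 (-1.16, SE 0.24, adjusted p = 6.33e-06) in shRai1. The pooled FPKM gave the same direction under BIC with a smaller log2 ratio, -0.54. The gene's mean normalized count was 138.8, near the median of 107.3 over all genes tested.

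Neuronal markers of each kind were also called under the drugs. Of the markers of inhibitory neurons, in which GluN2D is best known, 4 of 7 were higher and 2 lower under BIC averaged over arms, where 22.4% of all genes tested were higher and 23.6% lower. In the same contrast 3 of 5 excitatory neuron markers were higher and 2 lower, and 4 of 8 general neuron markers higher and 2 lower. Under TTX averaged over arms 1 of 7 inhibitory markers was higher and 3 lower, against 15.5% and 17.5% of all genes, while 1 was higher and 1 lower among both the 5 excitatory and the 8 general markers. The FPKM of the inhibitory markers in shCtrl summed to 375 with TTX, 467 with vehicle and 522 with BIC. That of the excitatory markers summed to 109, 129 and 92.8 in the same order, and that of the general markers to 513, 545 and 476. The inhibitory markers did not move together in these sums. Dlx1 was at 71.7 FPKM in vehicle and 17.6 in TTX. From vehicle to BIC, Gad1 went from 97.0 to 148 FPKM, Gad2 from 46.8 to 86.7 and Slc32a1 from 46.3 to 55.0, while Dlx1, Dlx2, Lhx6 and Sst were lower. None of the 7 inhibitory markers was under 1 FPKM in vehicle, where they ranged from 14.9 to 162 FPKM. The part of these cells in the Grin2d and Grin3a results was not tested.

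Grin2c was low, at 1.75 FPKM in vehicle, 1.20 in TTX and 1.40 in BIC, with a mean normalized count of 51.6. The authors' deposited tables gave it log2 changes of 0.00 (SE 0.25) and -0.35 (SE 0.23) under TTX and 0.01 (SE 0.27) and 0.17 (SE 0.22) under BIC, in shCtrl and shRai1 in that order. None was called, and the interval of the TTX average, from -0.51 to 0.16, leaves room for changes as large as those of Grin1 and Grin2a. Astrocyte markers, the cells in which Grin2c is best known outside the cerebellum, were lower for 4 of 8 under TTX in shCtrl, where 14.9% of all genes were lower. In shRai1, the arm in which Grin2c was at -0.35, 1 of 8 was higher and 1 lower, against 13.7% and 16.8% of all genes. The summed astrocyte level in shCtrl was 239 FPKM in vehicle and 197 in TTX, and its part in the values of Grin2c was not tested.

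Grin3a encodes GluN3A and gave the only response in the family that was called in opposite directions under TTX and BIC within each arm. In the averages over arms Grin2a was also called lower under TTX (-0.20) and higher under BIC (0.18). In shCtrl Grin3a was lowest in TTX at 4.34 FPKM, stood at 5.56 FPKM in vehicle and was highest in BIC at 7.31 FPKM. The authors' deposited table for TTX in shCtrl put the log2 change at -0.83 (SE 0.14, adjusted p = 1.71e-07, DESeq2), and that for shRai1 gave -0.55 (SE 0.13, adjusted p = 0.000152). Under BIC the authors' deposited tables gave 0.76 (SE 0.15, adjusted p = 6.09e-06) in shCtrl and 1.00 (SE 0.12, adjusted p = 6.73e-15) in shRai1. The TTX and BIC responses of an arm share their vehicle libraries.

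Averaged over arms Grin3a stood at 0.620 of vehicle under TTX and 1.84 times vehicle under BIC. The direct contrast put BIC above TTX by 3.01 times in shCtrl (log2 1.59, SE 0.21, adjusted p = 9.41e-13, Wald test) and by 2.92 times in shRai1 (log2 1.55, SE 0.18, adjusted p = 5.27e-17). In size the change exceeded 94.0% of all genes tested for TTX and 91.8% for BIC. The pooled FPKM gave the same directions with smaller log2 ratios, -0.36 under TTX and 0.40 under BIC.

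The calcineurin subunit gene Ppp3r2, listed at the interval of Grin3a, had a mean normalized count of 0 and was therefore in no test. In the FPKM table it was listed at 0.425 in vehicle, 0.447 in TTX and 1.95 in BIC. Its bounds overlapped between all 3 conditions.

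Grin3b, the GluN3B gene better known from motor neurons, had a mean normalized count of only 6.61. Its FPKM was 1.47 in vehicle, 2.31 in TTX and 2.58 in BIC, with lower bounds of 0.0858, 0 and 0.773. The authors' deposited tables gave log2 changes of 0.76 (SE 0.42) under TTX and 0.76 (SE 0.42) under BIC in shCtrl, and 0.18 (SE 0.41) and 0.21 (SE 0.41) in shRai1. The TTX tables and the knockdown in vehicle held no adjusted p for it. These errors left wide intervals, such as -0.05 to 1.58 for TTX in shCtrl. Tmem259, which shares its interval and had a mean normalized count of 368, was lower under BIC averaged over arms by a log2 change of -0.33 (SE 0.085).

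Rai1 encodes a chromatin-associated protein whose loss causes Smith-Magenis syndrome, and the comparison of shRai1 with shCtrl asks whether its depletion alters transcription at each level of activity. The nascent RNA of Rai1 itself was called in none of the 3 treatments: the authors' deposited tables gave log2 changes of 0.16 (SE 0.073, adjusted p = 0.357, DESeq2) in vehicle, -0.12 (SE 0.064) in TTX and 0.03 (SE 0.073) in BIC. An shRNA acts on the mature transcript, so nascent RNA is no check of the knockdown, and directions between arms rest on the labels.

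No subunit gene was called for the knockdown. The counts were 0 of 6 in vehicle, 0 of 7 in TTX and 0 of 7 in BIC by DESeq2, and none had an unadjusted p under 0.05 in any of the 3. Among all genes the share called was 0.857% (vehicle), 0.0283% (TTX) and 0.00944% (BIC), and the share with such an unadjusted p was 11.1%, 3.30% and 2.93%. The average over treatments called 0 of 7, against 0.00548% of all genes, and had 0 of 7 at an unadjusted p under 0.05, against 4.12% (Wald test).

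The intervals of that average were narrow for the abundant genes. Grin1 had an average knockdown change of 0.02 (95% confidence interval -0.06 to 0.10), Grin2a of -0.01 (-0.11 to 0.10) and Grin2b of -0.05 (-0.16 to 0.07). Those of the scarcer genes were wider, at -0.05 (-0.20 to 0.11) for Grin3a, 0.10 (-0.11 to 0.31) for Grin2d, 0.04 (-0.23 to 0.32) for Grin2c and 0.12 (-0.35 to 0.59) for Grin3b.

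The difference of the drug responses between arms was tested for each gene. For TTX 0 of 7 subunit genes were called, against 0.943% of all genes, and for BIC 0 of 7, against 0.0219%; no unadjusted p was under 0.05 in either, against 9.05% and 3.03% of all genes (Wald test). Under TTX the difference was negative for 6 of 7 genes, from -0.13 for Grin1 to -0.59 for Grin3b, and was 0.28 (SE 0.19, adjusted p = 0.748) for Grin3a. Its median was -0.22 over the 7 genes and -0.0015 over all genes tested. The medians of the 5 lists of related genes described below were -0.14, -0.09, -0.13, -0.23 and 0.06. Of 5 oligodendrocyte precursor markers 4 fell under TTX in shCtrl, where 14.9% of all genes fell. In shRai1 4 of 5 rose, where 13.7% of all genes rose. Their TTX response differed between the arms for 5 of 5 (Wald test). The same markers were lower in shRai1 than in shCtrl for 4 of 5 in vehicle (median -0.78 on the log2 scale), where 0.730% of all genes were lower, while Pdgfra alone among them was called higher in TTX and lower in BIC (DESeq2 in the authors' deposited tables). Of 8 general neuron markers 1 was called higher in shRai1 than in shCtrl in vehicle, against 0.126% of all genes (DESeq2). For the difference of the TTX responses 1 of the 8 was called lower, against 0.356% of all genes (Wald test). The part of these cell types in the subunit values was not tested.

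**Figure D3:**
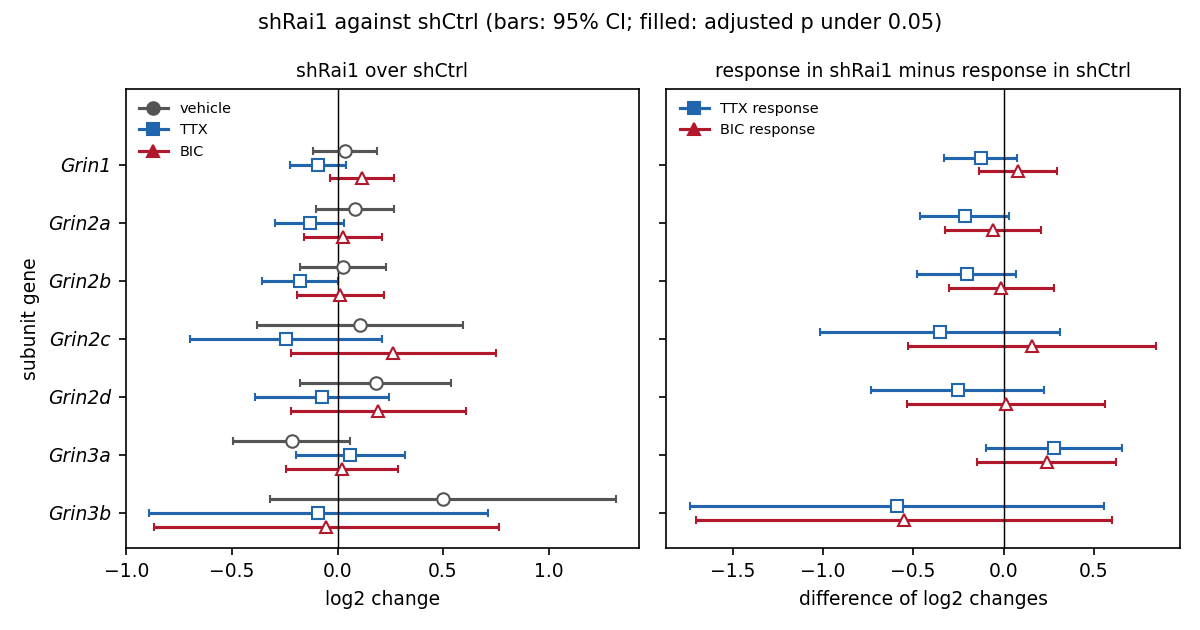
Log2 change of each subunit gene for shRai1 over shCtrl in vehicle (circles), TTX (squares) and BIC (triangles), and the difference of its TTX and BIC response between the arms, with 95% confidence intervals as bars. All symbols are open, since no adjusted p was under 0.05, and the bars of Grin3b are the widest.

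The other genes of glutamate receptor signalling were grouped in 5 lists. Their counts stand beside shares over all genes tested of 15.5% higher and 17.5% lower under TTX, and 22.4% higher and 23.6% lower under BIC, both averaged over arms. Of 11 AMPA, kainate and delta receptor subunits, TTX averaged over arms raised 5 and lowered 1, and BIC raised 4 and lowered 5. Grik4, a kainate receptor subunit, had the largest TTX change of them, 0.84 (SE 0.060, adjusted p = 5.87e-43, Wald test), which differed between arms by -0.43 (adjusted p = 0.0438). Grik3, another kainate receptor subunit, had the largest BIC change, -1.27 (SE 0.057, adjusted p = 1.08e-106), close in size to the -1.18 of Grin2d. The list's median was -0.02 in both averages, while that of all genes tested lay within 0.01 of 0.

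Of 19 scaffold, trafficking and auxiliary partners of the receptor, TTX raised 2 and lowered 9 and BIC raised 6 and lowered 6. The polarity scaffold gene Lin7a fell by 0.86 on the log2 scale under TTX (SE 0.085), and the adaptor gene Apba1, whose product links the kinesin that carries GluN2B vesicles, fell by 0.71 (SE 0.063). Under BIC the neurofilament light chain gene Nefl, whose protein binds GluN1, rose by 2.85 (SE 0.073), which was the largest change in the 5 lists. The list's median was -0.10 under TTX and 0.02 under BIC.

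Of 20 kinases, phosphatases and effectors, TTX raised 6 and lowered 6, while BIC raised 5 and lowered 11. Ptpn5, which encodes the phosphatase STEP that acts on GluN2B, fell by 0.97 under TTX (SE 0.063). Camk2d, a calcium/calmodulin-dependent kinase gene, rose by 0.98 under BIC (SE 0.076), and Fyn, a kinase of GluN2 tails, rose by 0.92 (SE 0.046). The pooled FPKM of Camk2d in shCtrl did not show that rise, at 17.2 in vehicle and 16.3 in BIC, while Fyn was at 21.3 and 30.4. Their median under BIC was -0.23, the farthest from 0 of the 5 lists.

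Of 12 genes for the supply of D-serine and glycine, 11 were tested, of which TTX raised 1 and lowered 2 and BIC raised 2 and lowered 3. Psat1, an enzyme of serine synthesis, fell by 0.28 under TTX (SE 0.065) and rose by 0.57 under BIC (SE 0.067), although shCtrl cultures had 23.3 FPKM of it with vehicle and 21.0 FPKM with BIC. Of 11 transcription factors linked to subunit genes, TTX raised 3 and lowered 0 and BIC raised 4 and lowered 2. Neurod1, a neuronal basic helix-loop-helix factor, rose by 0.81 under TTX (SE 0.12) and had a BIC change of -0.99 (SE 0.14). None of the 73 list genes was called in the knockdown averaged over treatments, and 4 of the 72 tested had an unadjusted p under 0.05, against 4.12% of all genes (Wald test). In the authors' deposited tables (DESeq2) 0 were called in each treatment, with an unadjusted p under 0.05 for 12 of 71 in vehicle, 11 of 73 in TTX and 4 of 73 in BIC, where the shares of all genes were 11.1%, 3.30% and 2.93%. For the difference of the TTX responses between arms, 1 of 72 was called, Grik4, and 21 had an unadjusted p under 0.05, against 9.05% of all genes (Wald test). For that of the BIC responses 0 were called and 2 had such a p, against 3.03%.

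**Figure D4:**
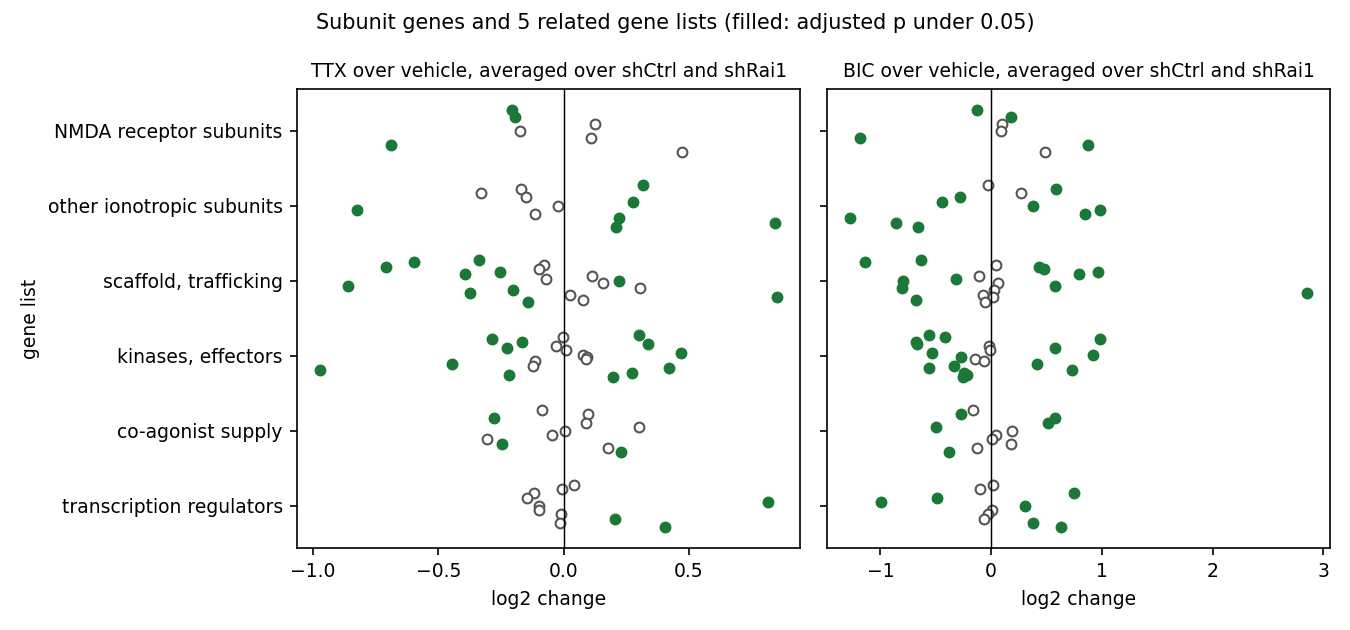
Log2 change under TTX and under BIC, averaged over both arms, of the 7 subunit genes and of the genes of 5 related lists, 1 point per gene with an adjusted p, filled where it was under 0.05. The subunit genes span -0.69 to 0.47 under TTX and -1.18 to 0.88 under BIC, and the point farthest right under BIC is Nefl at 2.85.

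Genes with the most similar pattern were found by Euclidean distance over 5 log2 changes (both drug responses of both arms and the knockdown in vehicle), among the 12333 genes whose mean normalized count reached 50. Grin3a was nearest to A330093E20Rik at a distance of 0.048 and Tfg at 0.092, and Grin2d to Raver2 at 0.12. Grin2b was nearest to Dpp6 at 0.046 and Cacng2 at 0.063, Grin2a to Mob3b at 0.029 and Pitpnb at 0.060, Grin1 to Smpd3 at 0.049 and Lamb2 at 0.071, and Grin2c to Pcbp3 at 0.15 and Nrp2 at 0.16. Within the family Grin2d and Grin3a lay farthest apart, at 3.18, and Grin2a and Grin2c nearest, at 0.23. The distances were set by 16 libraries that all genes share.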

How the data were processed

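Bru-seq values of 16 libraries were used; 12 ChIP-seq samples were not analysed here. Per the submitters' processing notes, TopHat2 2.1.0, Bowtie2 2.2.6 and DESeq2 were used, with build mm9. Each deposited DESeq2 table gives, per the file headers, a mean normalized count (a signal averaged over libraries after scaling), the log2 fold change with its standard error, the Wald score, and p-values before and after adjustment. The authors' FPKM are 1 pooled value with bounds per condition. Knockdown FPKM columns entered only the mean over 6 conditions, since their treatment names disagreed with the deposited knockdown tables. Rows of the knockdown table for vehicle carry no gene name and were identified by unique mean count (20107 genes) and checked by closure of the log2 changes (largest gap 1e-09). Total counts per library are unknown, so precision is read from the standard errors. The labels call the libraries biological replicates.

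Averages over arms, interactions, the average knockdown and BIC minus TTX were computed here (numpy 2.4.6, pandas 2.3.3, scipy 1.17.1) from the deposited log2 changes, with two-sided Wald tests and Benjamini-Hochberg adjustment over 18241 genes of at least 0.1 FPKM. The calculation was tested on simulated data. Alternatives were other thresholds, filters, centring and standard errors. Starts are 1-based (deposited starts were read as 0-based, which made 7683 gene lengths equal to RefSeq's, against 481). All 7 subunit genes were named, and of each list the called genes with the largest change and smallest p; 1 gene of similar pattern is not reported here. The members and lists were chosen with earlier results of these data known.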

Additional observations from a re-analysis of the deposited data

How the results depend on the processing

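No paired analysis was possible because the tables used here give group comparisons and pooled levels, with no values per library, and for the same reason leaving out single libraries was not run. Of 48 counts of called subunit genes under other settings, for comparisons that called at least 1, 46 stayed within 1.5 times the main count; for the knockdown comparisons and interactions, 39 counts were 0 as in the main result, which says nothing about stability. With adjusted p under 0.1, TTX in shCtrl called 2 subunit genes, the second being Grin2b at 0.23, and with adjusted p under 0.01, BIC averaged over arms called 2. Centring on the median of genes with a count of at least 50 ended the Grin1 call for BIC averaged over arms (-0.09) and added Grin2a for BIC in shCtrl (0.25, adjusted p = 0.0488). It turned Grin3b for BIC minus TTX in shCtrl from -0.0017 to 0.0044. Pooled FPKM ratios in shCtrl, an alternative chosen after seeing the data, differed from the log2 change by more than its standard error in 9 of 14 cases; the cause was not tested. Genes as scarce as Grin2c and Grin3b limit what could be seen.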
